A study of Mus musculus with 6 samples.

Results

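The mitochondrial carrier genes of mouse liver were described here in livers with and without hepatocyte Mettl3. Members were the protein-coding features whose symbol is Slc25a followed by a number, with 3 of the 47 such symbols left out, which gave 44 of the 54086 features in the table (22058 of them protein-coding). For 43 of the 44 the deposited annotation names a mitochondrial carrier domain, and the exception is Slc25a47. The control mice carried Mettl3 flox/flox alleles, which are flanked by Cre target sites and intact without Cre, and the other mice, labelled HKO, had a hepatocyte-specific knockout of Mettl3. Both groups were 8 weeks old, ate normal chow and gave 3 whole-liver poly(A) RNA libraries each. The Cre line, the deleted exons and the sex of the mice are not stated in the labels or series text. Whether the 3 libraries of a group came from 3 different mice is not stated either, so a p-value here reflects only how much these libraries vary.

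Slc25 carriers sit mostly in the inner mitochondrial membrane, where they exchange nucleotides, phosphate, carboxylates, amino acids and cofactors between the cytosol and the matrix. In hepatocytes they feed oxidative phosphorylation, gluconeogenesis, the urea cycle, fatty acid synthesis and heme synthesis. Mettl3 is the catalytic subunit of the complex that writes N6-methyladenosine on mRNA.

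The promoter windows of 4 carriers are shown because these were the members that passed the test below in the largest number of alternative settings. They come from RefSeq on GRCm38.p6 and run from 250 bases before to 50 after the RefSeq start, 5′ to 3′ on the gene's strand. Capitals mark every match, on either strand, to the CCAAT box, the ETS factor core CGGAAG, the E-box CACGTG, the nuclear receptor core AGGTCA, the TATA box TATAAA or the NRF1-type core GCGCATGC.
Slc25a47, chr12:108850879-108851178, plus strand: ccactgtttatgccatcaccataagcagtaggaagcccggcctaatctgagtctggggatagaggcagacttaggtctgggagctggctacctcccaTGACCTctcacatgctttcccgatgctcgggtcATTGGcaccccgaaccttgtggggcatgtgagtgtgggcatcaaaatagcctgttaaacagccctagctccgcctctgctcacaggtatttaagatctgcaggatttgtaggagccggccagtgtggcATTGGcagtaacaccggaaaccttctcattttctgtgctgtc
Slc25a1, chr16:17928170-17928469, minus strand: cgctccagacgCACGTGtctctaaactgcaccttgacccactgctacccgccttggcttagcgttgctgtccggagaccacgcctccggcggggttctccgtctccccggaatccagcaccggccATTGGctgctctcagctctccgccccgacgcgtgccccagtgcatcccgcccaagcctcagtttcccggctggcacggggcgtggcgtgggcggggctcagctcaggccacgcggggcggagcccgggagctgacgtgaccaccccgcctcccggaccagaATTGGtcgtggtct
Slc25a16, chr10:62920383-62920682, plus strand: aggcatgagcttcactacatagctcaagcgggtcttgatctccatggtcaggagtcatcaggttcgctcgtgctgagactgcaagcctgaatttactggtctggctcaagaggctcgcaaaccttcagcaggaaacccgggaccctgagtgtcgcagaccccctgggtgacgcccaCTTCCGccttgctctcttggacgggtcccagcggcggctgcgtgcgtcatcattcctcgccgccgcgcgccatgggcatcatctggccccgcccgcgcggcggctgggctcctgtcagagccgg
Slc25a21, chr12:57197423-57197722, minus strand: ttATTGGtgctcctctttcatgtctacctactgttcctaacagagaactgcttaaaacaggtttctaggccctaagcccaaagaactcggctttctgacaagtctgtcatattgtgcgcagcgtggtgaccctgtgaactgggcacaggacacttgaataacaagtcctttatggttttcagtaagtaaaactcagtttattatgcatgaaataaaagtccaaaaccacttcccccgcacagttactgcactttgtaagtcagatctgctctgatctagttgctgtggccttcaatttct

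Of the 30 carriers that entered the test, 24 had a RefSeq window, among them all 7 that were lower in HKO. CCAAT, searched also as ATTGG, stood in 15 of the 24 (6 of the 7) and in 37.4% of 32851 mouse windows of the same length. CGGAAG, searched also as CTTCCG, stood in 8 of the 24 (3 of the 7) and in 16.9% of all windows. The E-box CACGTG, which reads the same on both strands, stood in 2 (1 of the 7) and in 7.15% of all windows. AGGTCA, searched also as TGACCT, stood in 4 (1 of the 7) and in 16.3% of all windows. TATAAA (or TTTATA) and GCGCATGC (or GCATGCGC) stood in none of the 24, against 13.6% and 2.71% of all windows. Matches of different motifs were allowed to overlap. The median window of the 24 carriers held 21 CpG dinucleotides, against 7 over all windows. The 24 carriers averaged 1 FPKM or more in these livers, while the 32851 windows were not chosen by expression. The comparisons therefore do not show a trait of carriers apart from other expressed genes. These matches are letters in a window and no evidence of binding.

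Reads rebuilt from the FPKM values (fragments per kilobase of gene, adjusted for sequencing depth) summed to 16529358 to 18556076 per library. The gene-level value of Mettl3 was 1.88, 2.17 and 1.98 FPKM in the flox/flox libraries and 2.45, 2.14 and 2.06 FPKM in the HKO libraries, in the order of replicates 1 to 3 that all values below follow. The ranges overlapped (log2 fold change 0.09, SE 0.11, adjusted p = 0.582, limma), and since the deleted exons are not given, a value over the whole gene does not check the labels. Summed FPKM of 8 hepatocyte markers ran from 45230 to 74000 in flox/flox and from 20600 to 41690 in HKO, so the defining markers of the labelled tissue were present. Macrophage markers summed to 66.4 to 260 FPKM in flox/flox and 364 to 446 in HKO, stellate and fibroblast markers to 31.7 to 38.0 and 53.0 to 69.7, and dividing cell markers to 0.736 to 1.03 and 4.69 to 11.4. In whole liver, fewer cells of a type and less RNA per cell cannot be told apart. Flox/flox replicate 1 stood apart for several carriers, with the highest of the 6 values for 14 of the 30 tested members, and calls that change without it are given beside the carrier. It was not the only such library. HKO replicate 3 held the lowest value for 9 of the 30. The median distance of the carriers from the rest of their group was 0.246 log2 units in flox/flox replicate 2 and 0.231 in replicate 1.

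Of the 44 carriers, 30 averaged 1 FPKM or more across the libraries and were tested with limma on log2(FPKM + 1), HKO minus flox/flox, a scale that understates the change of low genes. By Benjamini-Hochberg adjusted p under 0.05 over 11086 features, 7 carriers were lower in HKO and 0 were higher. Over all tested features 6.86% were lower and 5.95% higher. At an unadjusted p under 0.05, 14 carriers were lower and 1, Slc25a4, was higher, against 19.8% and 14% of all features. The alternative test voom on the rebuilt reads gave 5 lower and 0 higher, against 4.57% and 7.92%. The median log2 fold change of the 30 carriers was -0.31, against -0.06 over all tested features, and 26 of the 30 were negative. The signs depended on the scaling: with a common sum or with library totals, described below, 12 of the 30 were negative and the medians were 0.06 and 0.06, against 0.26 over all features under both. In 16 carriers every HKO value lay under every flox/flox value, which 24.7% of all features did. In 1 carrier, Slc25a48, every HKO value lay above, as in 16.8% of all features.

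**Figure D1:**
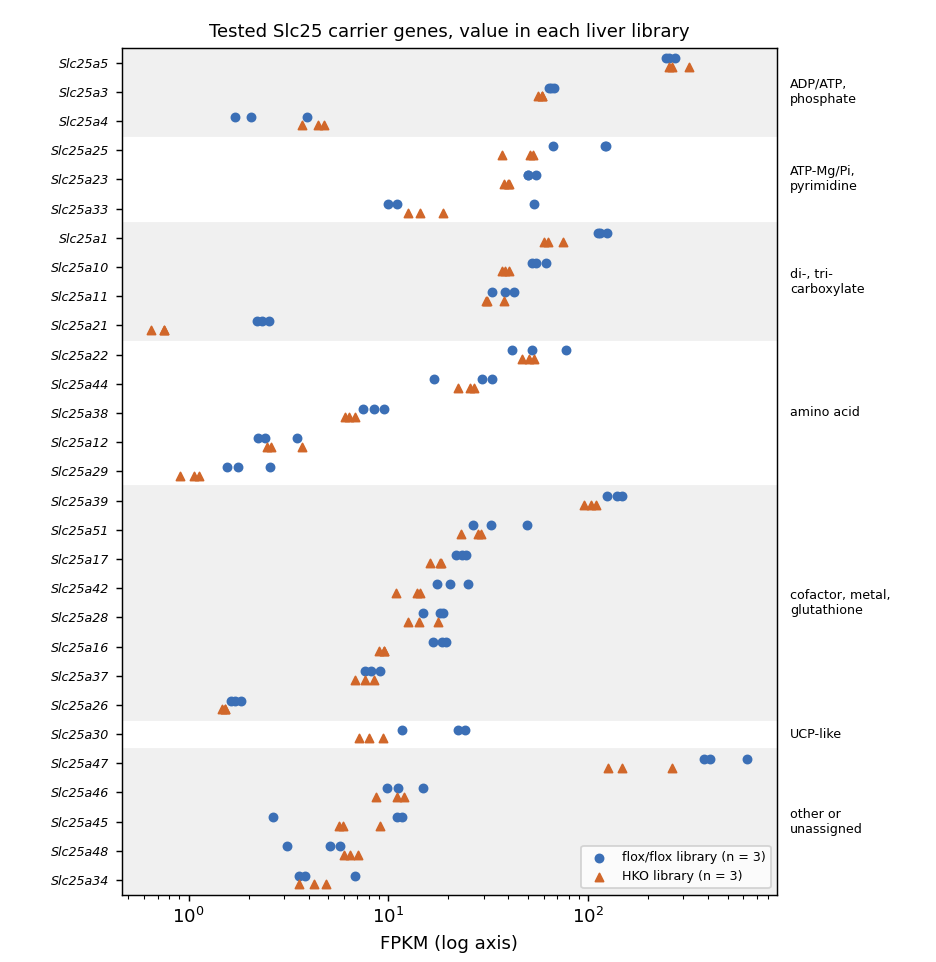
FPKM (log axis) of 29 of the 30 tested carriers in each of the 6 liver libraries, grouped by what they carry, with circles for flox/flox and triangles for HKO. Slc25a47 and Slc25a5 are at the top of the range, and Slc25a47, Slc25a1, Slc25a16 and Slc25a21 have all 3 HKO values under all 3 flox/flox values.

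By role, the lower carriers fell into these groups: 3 of the 4 tested di- and tricarboxylate carriers (median log2 fold change -0.67), 1 of 3 ATP-Mg/phosphate and pyrimidine nucleotide carriers (-0.39), 1 of 9 cofactor, metal and glutathione carriers (-0.38), the 1 tested uncoupling-protein-like carrier (-1.10) and 1 of 5 other or unassigned carriers (-0.10). No member of the ADP/ATP and phosphate group (3 tested, median 0.11) or of the amino acid group (5 tested, median -0.14) passed the threshold. At an unadjusted p under 0.05 these last groups held 1 higher and 2 lower members, and voom called none. The groups with a lower carrier, in the order above, held 3, 2, 5, 1 and 1 lower members at that cut. Voom called 2, 0, 1, 1 and 1 of them lower. Of all features, 6.86% were lower by adjusted p, 19.8% by unadjusted p and 4.57% by voom. With 1 to 9 tested members, the groups are too small to compare with each other.

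Slc25a1, the citrate carrier that exports citrate for fatty acid synthesis (chr16:17925211-17928219, minus strand), was at 124, 113 and 115 FPKM in flox/flox and at 75.2, 63.4 and 60.5 in HKO. Every HKO value was lower than every flox/flox value, and the gap was wider than the spread within either group. Its mean went from 117 ± 6.13 to 66.4 ± 7.82 FPKM (SD, n = 3 each), a log2 fold change of -0.82 (SE 0.13, 95% interval -1.13 to -0.51, adjusted p = 0.0200).

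Slc25a10, the dicarboxylate carrier that exchanges malate and succinate for phosphate (chr11:120491840-120499187, plus strand), was at 52.5, 61.7 and 54.7 FPKM in flox/flox and at 38.5, 37.3 and 40.2 in HKO. The HKO libraries were close to each other and all lower. It changed by a log2 fold change of -0.53 (SE 0.11, 95% interval -0.80 to -0.26, adjusted p = 0.0349). Slc25a10 was not called with median-of-ratios scaling (-0.46, adjusted p = 0.0504), quantile normalization (-0.24, 0.262) or library totals (-0.13, 0.543). A low antisense feature, Gm11788, shares 555 bases with it at a mean of 2.39% of its level.

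Slc25a21, the oxodicarboxylate carrier of lysine and tryptophan breakdown (chr12:56712634-57197472, minus strand), was at 2.20, 2.34 and 2.54 FPKM in flox/flox and at 0.753, 0.652 and 0.754 in HKO. The HKO values were tightly grouped and far under the controls, a mean of 2.36 ± 0.170 against 0.720 ± 0.0587 FPKM, which is 3.27-fold. It is a low transcript whose flox/flox and HKO values rest on 58 to 188 reads in a library. Its HKO mean lay under the filter of 1 FPKM, so it entered the test only through its flox/flox values. Without the filter on low values it was also called (limma, adjusted p = 0.0386). On the log2 scale the fold change was -0.96 (SE 0.11, 95% interval -1.23 to -0.70, adjusted p = 0.0137).

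The fourth of this group, the oxoglutarate carrier Slc25a11 of the malate-aspartate shuttle, did not pass. It was at 33.0, 42.9 and 38.4 FPKM in flox/flox and at 31.2, 30.9 and 38.0 in HKO, ranges that overlapped (log2 fold change -0.18, 95% interval -0.53 to 0.17, adjusted p = 0.417). Rnf167, on the opposite strand, shares 245 bases with Slc25a11 at 27.2% of its level, and the labels do not say whether reads were counted by strand. Within a library, a ratio of 2 carriers does not depend on a scaling that uses 1 factor per library. Quantile normalization is not of that kind and can change it. Slc25a10 over Slc25a11 was 1.59, 1.44 and 1.42 in flox/flox and 1.24, 1.21 and 1.06 in HKO, with no overlap.

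**Figure D2:**
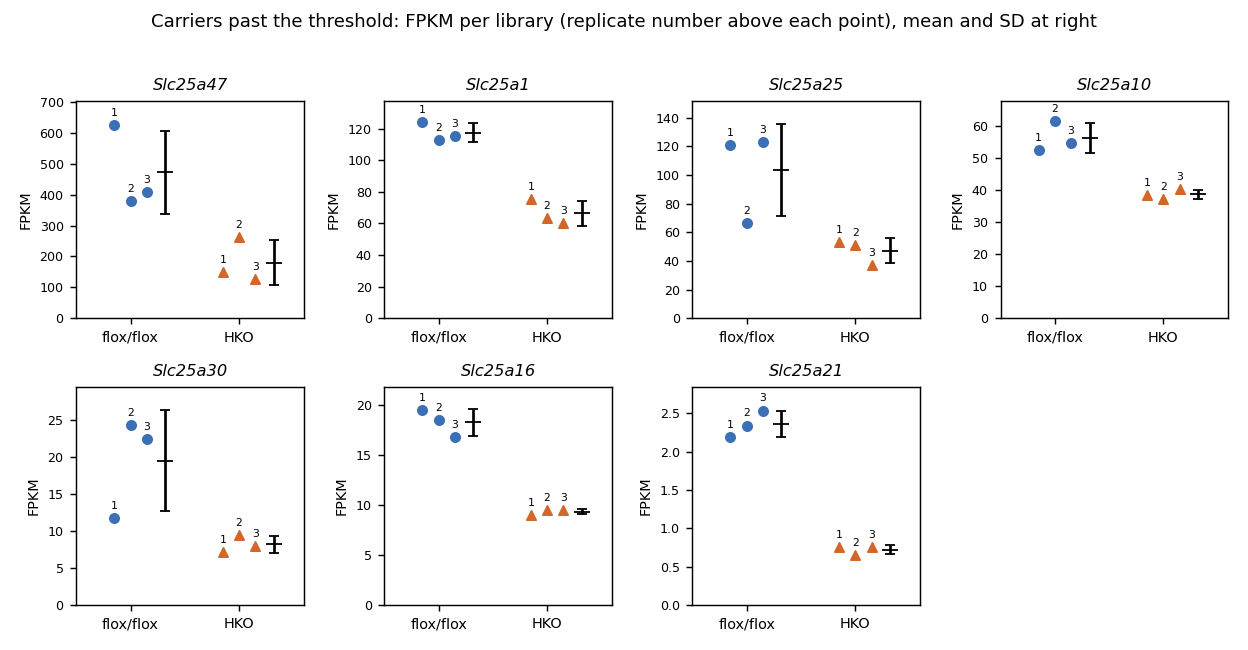
FPKM per library (vertical axes from 0) for the 7 carriers past the threshold, with the replicate number above each point and the group mean and SD to its right. In each panel the 3 HKO triangles lie under the 3 flox/flox circles, from 626 against 127 at the extremes of Slc25a47 to 2.54 against 0.652 for Slc25a21.

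Slc25a47, a liver-enriched carrier whose substrate is less settled (chr12:108836046-108856815, plus strand), was the most abundant member in the controls. It was at 626, 380.2 and 409 FPKM in flox/flox and at 149, 263 and 127 in HKO. Replicate 1 was the highest control and replicate 2 the highest HKO library, and the groups did not overlap. The mean went from 472 ± 135 to 179 ± 73.0 FPKM, a log2 fold change of -1.43 (SE 0.32, 95% interval -2.19 to -0.66, adjusted p = 0.0381). Without control replicate 1 it was -1.20 and did not pass (adjusted p = 0.0621).

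The deposited model of Slc25a47 begins 162 bases from that of Slc25a29, a basic amino acid carrier on the opposite strand, and 15083 bases upstream of the RefSeq start used for the window printed above. Slc25a29 was at 2.55, 1.55 and 1.76 FPKM in flox/flox and at 1.13, 0.904 and 1.07 in HKO. The groups did not overlap, but its log2 fold change of -0.53 did not pass (95% interval -0.90 to -0.15, adjusted p = 0.0692).

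Slc25a25, a calcium-dependent ATP-Mg/phosphate carrier (chr2:32414487-32451445, minus strand), was at 121, 66.7 and 123 FPKM in flox/flox and at 53.2, 51.1 and 37.1 in HKO. Control replicate 2 lay near the HKO range but above it. It changed by a log2 fold change of -1.08 (SE 0.27, 95% interval -1.74 to -0.43, adjusted p = 0.0484), the nearest of the 7 to the threshold. Without control replicate 1 it was -0.95 and did not pass (adjusted p = 0.0883).

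Its relative Slc25a23, also a calcium-dependent ATP-Mg/phosphate carrier, was at 54.8, 49.99 and 50.4 FPKM in flox/flox and at 39.6, 40.2 and 37.9 in HKO. The groups did not overlap, but the log2 fold change of -0.39 did not pass (95% interval -0.64 to -0.14, adjusted p = 0.0554). Crb3, on the opposite strand, overlaps it by 759 bases at 14.7% of its level.

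Slc25a30, an uncoupling-protein-like carrier also called KMCP1 (chr14:75760117-75787037, minus strand), was at 11.7, 24.3 and 22.4 FPKM in flox/flox and at 7.17, 9.37 and 7.98 in HKO. Control replicate 1 was the lowest control, at less distance from HKO than from the other controls. The mean went from 19.5 ± 6.78 to 8.17 ± 1.11 FPKM, a log2 fold change of -1.10 (SE 0.27, 95% interval -1.74 to -0.46, adjusted p = 0.0451).

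Slc25a16, related to the yeast carrier linked to coenzyme A in mitochondria (chr10:62920633-62946498, plus strand), was at 19.5, 18.5 and 16.8 FPKM in flox/flox and at 9.02, 9.47 and 9.50 in HKO. Both groups were tight, and HKO livers held 51.1% of the control level. The mean went from 18.3 ± 1.37 to 9.33 ± 0.267 FPKM, a log2 fold change of -0.90 (SE 0.10, 95% interval -1.14 to -0.65, adjusted p = 0.0137).

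Slc25a42, the carrier that exchanges coenzyme A for adenine nucleotides, was at 17.6, 25.0 and 20.3 FPKM in flox/flox and at 10.9, 14.4 and 13.9 in HKO. The groups did not overlap, and the log2 fold change of -0.64 lay just short of the threshold (95% interval -1.04 to -0.24, adjusted p = 0.0533). It was called in 3 of 17 alternative settings, among them the one without control replicate 1 (-0.75, adjusted p = 0.0428). The ratio of Slc25a42 to Slc25a16 was 0.902, 1.35 and 1.21 in flox/flox and 1.21, 1.52 and 1.47 in HKO, ranges that overlapped.

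Among the other cofactor carriers, Slc25a39, required for mitochondrial glutathione import, was at 149, 139.5 and 125 FPKM in flox/flox and at 103, 95.2 and 109 in HKO. The groups did not overlap, but the log2 fold change of -0.42 did not pass (95% interval -0.72 to -0.11, adjusted p = 0.0750). Slc25a17, the peroxisomal cofactor carrier, also had no overlap and was not called (log2 fold change -0.39, adjusted p = 0.0622). Slc25a51, which imports NAD+, was at 36.3 ± 11.9 and 26.9 ± 3.22 FPKM, with overlapping ranges and adjusted p = 0.297. The mitoferrins Slc25a28 and Slc25a37, which import iron, had overlapping ranges and adjusted p = 0.381 and 0.579. The S-adenosylmethionine carrier Slc25a26 was at 1.72 ± 0.103 and 1.51 ± 0.0364 FPKM (adjusted p = 0.463). It lies beside Lrig1, on the opposite strand, which shares 144 bases with it and averages 468% of its level.

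**Figure D3:**
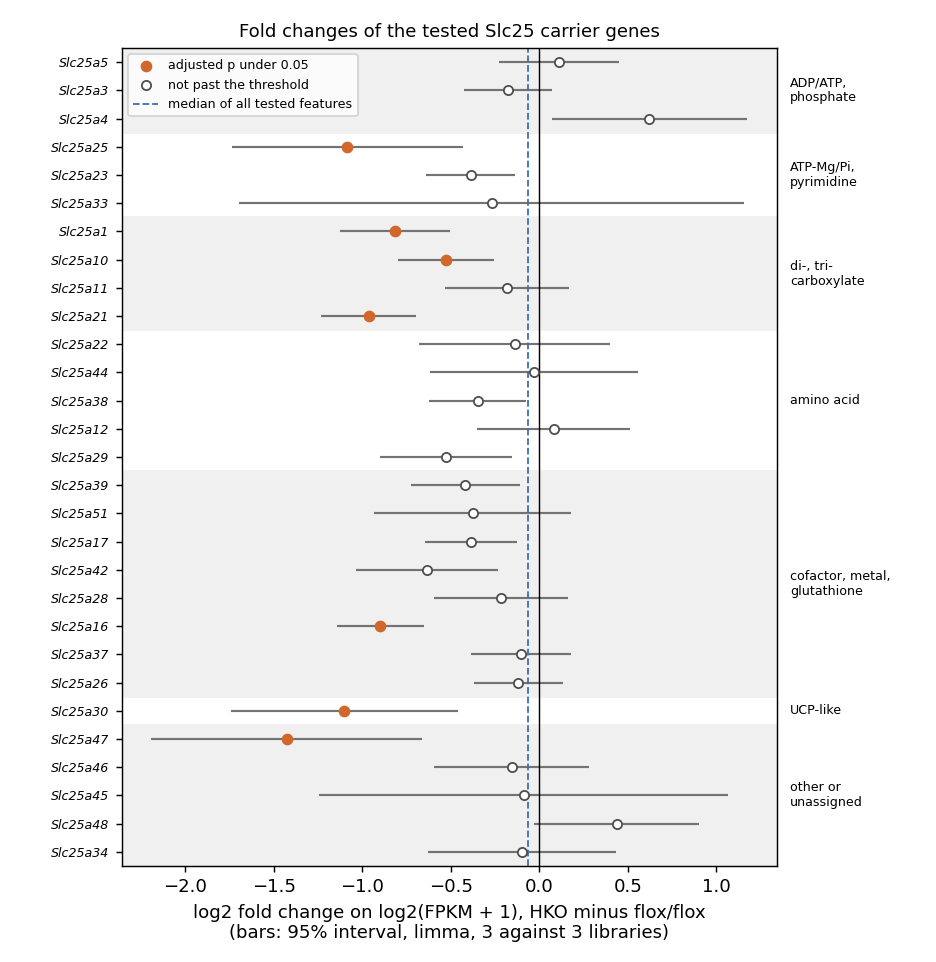
Log2 fold change (HKO minus flox/flox, log2(FPKM + 1) scale) of 29 of the 30 tested carriers with 95% intervals from limma, grouped by role. Filled points are the 7 past the threshold, all negative, and the dashed line is the median of all tested features at -0.06.

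The ADP/ATP carrier Slc25a5, the most abundant in the HKO livers, was at 273, 256 and 245 FPKM in flox/flox and at 262, 256 and 319 in HKO. The ranges overlapped and the 95% interval of its log2 fold change of 0.11 ran from -0.23 to 0.45 (adjusted p = 0.631). Slc25a4, the ADP/ATP carrier isoform of muscle and heart, was far lower, at 3.91, 2.05 and 1.70 FPKM in flox/flox and at 4.46, 4.75 and 3.70 in HKO. Control replicate 1 lay within the HKO range, and the log2 fold change of 0.62 did not pass (95% interval 0.07 to 1.17, adjusted p = 0.114). Without control replicate 1 it passed, at 0.88 (adjusted p = 0.0261). The phosphate carrier Slc25a3 was at 67.8, 65.2 and 63.5 FPKM in flox/flox and at 59.0, 58.6 and 56.0 in HKO. Its groups did not overlap, yet the test did not call it, at a log2 fold change of -0.18 (95% interval -0.42 to 0.07, adjusted p = 0.282).

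Of the amino acid carriers, Slc25a22, a glutamate carrier and the most abundant of them, was at 77.9, 41.8 and 52.4 FPKM in flox/flox and at 46.9, 53.6 and 50.6 in HKO. The HKO libraries lay inside the control range (log2 fold change -0.14, 95% interval -0.68 to 0.40, adjusted p = 0.703). Slc25a38, which carries glycine for heme synthesis, was at 8.50 ± 1.01 and 6.43 ± 0.368 FPKM without overlap (adjusted p = 0.0879), and Slc25a12, an aspartate/glutamate carrier, was at 2.72 ± 0.688 and 2.93 ± 0.686 FPKM (adjusted p = 0.786). The choline carrier Slc25a48 was at 5.74, 3.11 and 5.10 FPKM in flox/flox and at 7.09, 5.97 and 6.42 in HKO. All HKO values were higher, but the log2 fold change of 0.44 did not pass (95% interval -0.03 to 0.90, adjusted p = 0.168). The outer-membrane protein Slc25a46, of mitochondrial fission, and Slc25a34 had overlapping ranges and adjusted p = 0.586 and 0.786.

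Summed over all 44 members, FPKM was 1859, 1459 and 1511 in flox/flox and 1036, 1142 and 1074 in HKO. Without Slc25a47 the sums were 1138 ± 82.7 and 904.7 ± 37.5. The FPKM of all features also summed to less in HKO, and as a share of that sum the family overlapped between the genotypes, at 0.343, 0.322 and 0.330% in flox/flox and 0.298, 0.317 and 0.338% in HKO. Without Slc25a47 the shares were 0.227, 0.238 and 0.240% in flox/flox and 0.256, 0.244 and 0.298% in HKO, all 3 higher. No background was computed for this separation, and with library totals the median log2 fold change of all features was positive too, at 0.26. With Slc25a5 left out as well, the other 42 carriers held 880.6 ± 70.9 FPKM in the controls against 625.6 ± 2.56 in HKO. The share of these 42 was not computed, so the higher share is not shown to hold without Slc25a5. Slc25a47 made up 28.9 ± 4.16% of the family sum in flox/flox and 16.4 ± 5.88% in HKO, and Slc25a5 went from 16.1 ± 1.42% to 25.8 ± 3.69%. The order of the most abundant carriers differed accordingly: Slc25a47, Slc25a5, Slc25a39, Slc25a1 and Slc25a25 led in flox/flox, and Slc25a5, Slc25a47, Slc25a39, Slc25a1 and Slc25a3 in HKO. Of neighbours in these orders, Slc25a1 and Slc25a25 overlapped in flox/flox, and Slc25a5 and Slc25a47 overlapped in HKO.

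**Figure D4:**
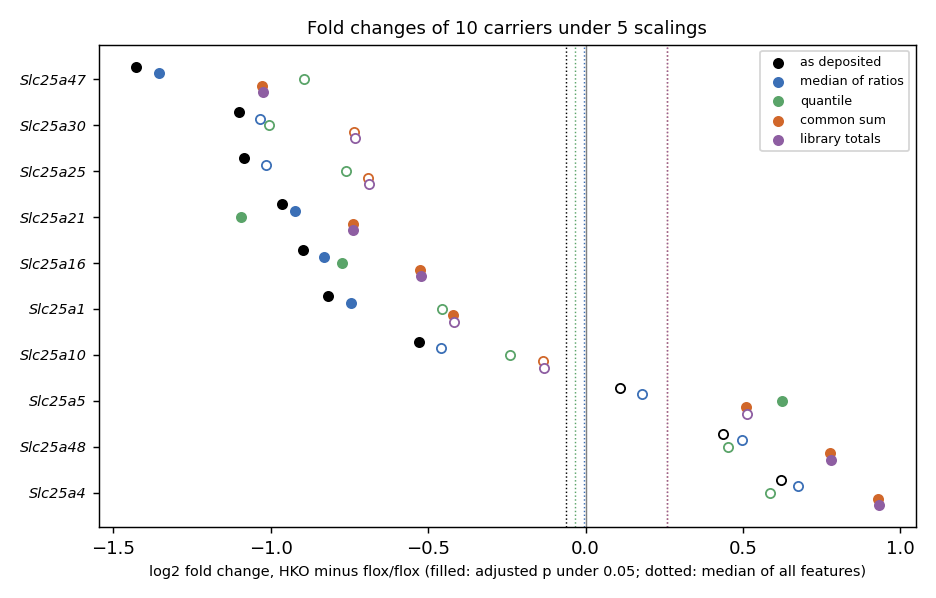
Log2 fold change (HKO minus flox/flox) of 10 carriers under 5 scalings of the libraries, filled where adjusted p was under 0.05, with dotted lines at the median of all features under each scaling. The 7 lower carriers stay left of 0 under all 5 scalings, and the points of Slc25a16 and Slc25a21 are filled in all 5.

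FPKM summed to 485040 ± 49908 over all features in flox/flox and to 341913 ± 21519 in HKO, so the choice of scaling moved fold changes. The 7 lower carriers kept a negative log2 fold change under all 5 scalings, and Slc25a16 and Slc25a21 kept their calls. Median-of-ratios scaling of the tested features called 4 carriers lower and 0 higher (all features 4.47% and 6.77%). Quantile normalization called Slc25a16 and Slc25a21 lower and Slc25a5 higher (3.48% and 5.86%). A common sum without the 20 highest features moved the median of all features to 0.26 and called Slc25a47, Slc25a1, Slc25a16 and Slc25a21 lower and Slc25a5, Slc25a48 and Slc25a4 higher (1.99% and 21.3%). Library totals, with the same median, called Slc25a47, Slc25a16 and Slc25a21 lower and Slc25a48 and Slc25a4 higher (1.92% and 19.2%). Relative to the median of all features, the median of the carriers was -0.24, -0.24, -0.07, -0.20 and -0.20 under the deposited, median-of-ratios, quantile, common-sum and total scalings.

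Ratios to Slc25a5 within a library do not depend on a factor per library. Slc25a47 over Slc25a5 was 2.30, 1.49 and 1.67 in flox/flox and 0.567, 1.03 and 0.396 in HKO. Slc25a1 over Slc25a5 was 0.456, 0.441 and 0.470 in flox/flox and 0.287, 0.248 and 0.189 in HKO. Slc25a16 over Slc25a5 was 0.0716, 0.0724 and 0.0687 in flox/flox and 0.0344, 0.0371 and 0.0297 in HKO. Slc25a21 over Slc25a5 was 0.00805, 0.00916 and 0.0104 in flox/flox and 0.00287, 0.00255 and 0.00236 in HKO. None of these ratios overlapped between the genotypes, and each shows only that the members of a pair changed unequally. By contrast, Slc25a25 over its relative Slc25a23 was 2.21, 1.33 and 2.45 in flox/flox and 1.34, 1.27 and 0.979 in HKO, ranges that overlapped.

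The calls were also sensitive to single libraries. With 1 library left out, 6 carriers were lower without control replicate 1 (6.64% of all features), 3 without control replicate 2 (1.47%) and 0 without control replicate 3 (0.117%). Leaving out an HKO library gave 0 for replicate 1 (0.207%), 1 for replicate 2 (0.496%) and 2 for replicate 3 (1.56%). Lower calls thus became fewer over the whole table in each of these last 5 runs. At an unadjusted p under 0.05, 12 carriers were lower without control replicate 3 and 14 without HKO replicate 1. The share of all features at that cut in these 2 runs is not given here, so the counts have no background to be read against. With all 6 libraries it was 19.8%. Of 17 alternative settings, Slc25a16 was called in 15, Slc25a1 in 9, Slc25a47 in 8, Slc25a30 in 6 and Slc25a25 and Slc25a10 in 5 each, and Slc25a21 in 12 of 16, without a change of sign.

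**Figure D5:**
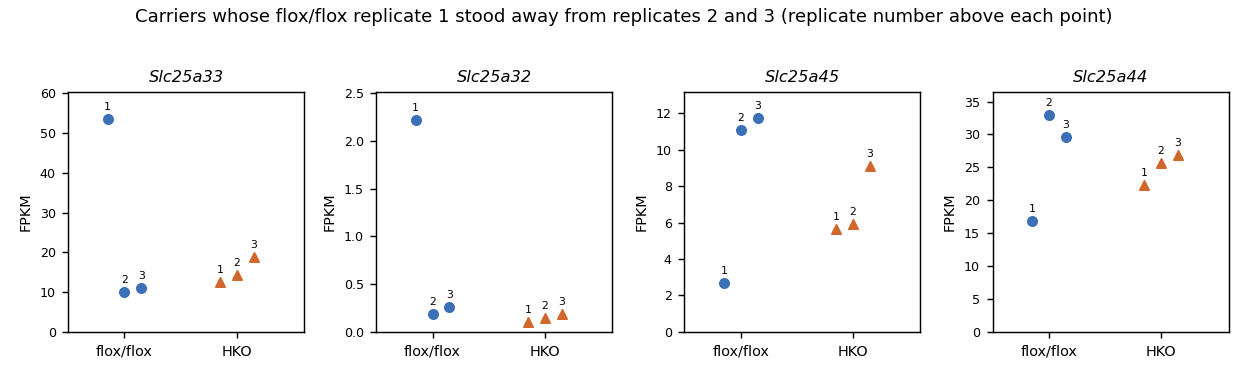
FPKM per library (vertical axes from 0) of 4 carriers whose flox/flox replicate 1 lay away from replicates 2 and 3, with the replicate number above each point. In Slc25a33 and Slc25a32 replicate 1 is the highest point, at 53.6 and 2.22, and in Slc25a45 and Slc25a44 it is the lowest, at 2.66 and 16.9.

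Control replicate 1 stood away in 4 carriers chosen after their values were seen. The pyrimidine nucleotide carrier Slc25a33 was at 53.6, 10.01 and 11.002 FPKM in flox/flox and at 12.6, 14.4 and 18.7 in HKO, with a log2 fold change of -0.27 (adjusted p = 0.786), or 0.48 without that library (adjusted p = 0.120). Slc25a45 was at 2.66, 11.1 and 11.7 FPKM in flox/flox and at 5.67, 5.91 and 9.12 in HKO, with -0.09 (adjusted p = 0.917), or -0.68 without it (adjusted p = 0.0787). The branched-chain amino acid carrier Slc25a44 was at 16.9, 32.9 and 29.6 FPKM in flox/flox and at 22.4, 25.7 and 26.8 in HKO. Slc25a32, linked to folate and flavin transport, was at 2.22, 0.182 and 0.259 FPKM in flox/flox and at 0.102, 0.144 and 0.184 in HKO, from 199 reads in control replicate 1 and 12 to 25 elsewhere. Replicate 1 held the highest of the 6 values in Slc25a33 and Slc25a32 and the lowest in Slc25a45 and Slc25a44.

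The 14 carriers under the filter included 3 with no read in any library, Slc25a31, Slc25a41 and Slc25a54, for which 0 counts allow up to 0.153 FPKM per library (3 counts, counting error only). Another 9 had reads in every library. Of the 14, 2 were higher in HKO without overlap and 1 was lower, where 23.3% and 3.63% of 6620 protein-coding features with reads and a mean under 1 FPKM were so. The ATP-Mg/phosphate carrier Slc25a24 was at 0.533, 0.361 and 0.421 FPKM in flox/flox and at 0.768, 0.814 and 0.914 in HKO. The pyrimidine nucleotide carrier Slc25a36 was at 0.402, 0.299 and 0.514 and at 0.668, 0.788 and 0.663. Both were higher in every HKO library, but without the filter on low values they were not called (log2 fold changes 0.35 and 0.28, adjusted p = 0.116 and 0.177). Slc25a35 was lower in every HKO library and was not called either (log2 fold change -0.13, adjusted p = 0.159).

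Genes that work beside the carriers were counted in lists made from general knowledge. Over all tested features 6.86% fell and 5.95% rose, with a median of -0.06. At an unadjusted p under 0.05 the shares were 19.8% and 14%, and by voom 4.57% and 7.92%. Of 13 tested genes of the carrier import machinery, which brings carriers across the outer membrane and into the inner one, 1 rose, Timm8a1, from 15.9 ± 1.82 to 23.9 ± 2.24 FPKM (log2 fold change 0.56, adjusted p = 0.0403, but 0.0600 without control replicate 1), and 0 fell (4 at an unadjusted p under 0.05, and 0 by voom). The median of the list was -0.08. Of 21 tested genes of other mitochondrial membrane transport, 2 fell and 0 rose (median -0.24). At an unadjusted p under 0.05, 5 were lower and 3 higher, and voom called 2 lower and 3 higher. Ucp2, an uncoupling protein outside the symbol rule, went from 4.41 ± 1.65 to 8.23 ± 1.48 FPKM without overlap. Its log2 fold change of 0.80 did not pass (adjusted p = 0.0673), but passed without control replicate 1 (1.03, adjusted p = 0.0315). Abcb10, an ABC transporter of the inner membrane needed for heme synthesis, went from 10.1 ± 1.64 to 5.96 ± 0.212 FPKM (-0.66, adjusted p = 0.0295). Mtch2, an outer-membrane insertase, went from 7.96 ± 0.742 to 4.87 ± 0.597 FPKM (-0.61, adjusted p = 0.0294).

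Of 26 tested enzymes that use carried substrates, 4 fell and 1 rose (median -0.36), against 6.86% and 5.95% of all features (median -0.06). Alas1, the first enzyme of heme synthesis, which uses glycine and succinyl-CoA in the matrix, went from 236 ± 62.6 to 92.2 ± 37.3 FPKM (log2 fold change -1.38, adjusted p = 0.0408). Gpd1, the cytosolic glycerol-3-phosphate dehydrogenase, went from 123 ± 31.96 to 52.7 ± 10.8 FPKM (-1.20, adjusted p = 0.0295). Shmt1, cytosolic serine hydroxymethyltransferase, went from 51.3 ± 8.21 to 26.6 ± 0.356 FPKM (-0.91, adjusted p = 0.0194), and Idh1, cytosolic isocitrate dehydrogenase, from 178 ± 16.6 to 107 ± 18.6 FPKM (-0.73, adjusted p = 0.0399). Mthfd1l, a mitochondrial enzyme of folate metabolism, was the 1 that rose, from 0.427 ± 0.0662 to 2.67 ± 1.11 FPKM (1.32, adjusted p = 0.0246). Its flox/flox mean lay under the filter of 1 FPKM, so Mthfd1l entered the test only through its HKO values. Mthfd2, at 0.453 ± 0.173 and 1.39 ± 0.740 FPKM with overlapping ranges, fell under the filter and was not tested. Of 10 biogenesis regulators 1 fell, the mitochondrial transcription factor Tfb2m, from 10.4 ± 1.87 to 6.35 ± 0.357 FPKM (-0.63, adjusted p = 0.0382, list median -0.03). With 1 library left out, the enzymes gave 0 to 6 lower and 0 to 2 higher, and the other transport genes 0 to 4 lower and 0 to 1 higher. The regulators gave 0 to 1 lower and 0 higher, and the import machinery 0 lower and 0 higher. In these runs 0.117% to 6.64% of all features were lower, and 17 to 718 of the 11086 were higher.

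Markers of some other liver cells moved with the genotype beside these results, where 5.95% of all features rose and 6.86% fell (median -0.06). Of 10 macrophage markers 3 rose (Csf1r, Cd68 and Marco, list median 1.34), and of 8 stellate and fibroblast markers 4 rose, while 0 of 8 hepatocyte markers passed (median -0.66, with 4 lower at an unadjusted p under 0.05 and 0 by voom). Of 2 tested cholangiocyte markers (6 listed) 1 rose (Sox9), as did the 2 tested dividing cell markers (Mki67 and Cdk1, 5 listed). The 1 tested of 10 T, NK and B cell markers, Nkg7, also rose. Sox9, Mki67, Cdk1 and Nkg7 averaged 0.703, 0.127, 0.322 and 0.268 FPKM in flox/flox, under the filter of 1 FPKM. They entered the test only through their HKO values of 2.62, 2.18, 1.74 and 2.49 FPKM. Their calls therefore cannot stand for these lists, whose other low markers were not tested. Without control replicate 1, 8 macrophage, 2 stellate and fibroblast, 1 cholangiocyte, 2 dividing cell and 0 T, NK and B cell markers were higher (718 of 11086 features). Of 8 sinusoidal endothelial markers 0 passed, with 0 at an unadjusted p under 0.05 and 0 by voom, and of 3 erythroid markers 0 passed, with 1 lower at an unadjusted p under 0.05 and 0 by voom. None of the markers was at 0 in all libraries. Their part in the carrier results was not tested.

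Sequence features of the transcripts that the members' choice did not use were also compared. In the longest protein-coding transcript of a GENCODE annotation of GRCm38, the motif GGACT, a common context of N6-methyladenosine, occurred at a median of 1.17 per kilobase in the 30 carriers, 1.11 in the 7 lower ones and 1.19 in the other 23, against 1.05 over 9751 tested protein-coding genes. These are counts of letters in the sense strand and not methylation.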

How the data were processed

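Whole-liver poly(A) RNA of 3 flox/flox and 3 HKO libraries was sequenced as paired ends, per the series text and the labels, and groups and replicate numbers came from the sample titles. The aligner was HISAT2 2.0.5 on GRCm38.p6 and the counter featureCounts 1.5.0-p3, per the submitters' processing notes, which also name DESeq2 1.16.1. The authors deposited FPKM for 54086 features, of which 285 have no gene name. The denominators followed median-of-ratios size factors (flox/flox 0.858 to 0.892, HKO 1.06 to 1.30) and not library totals. Multiplied back, 100% of the values were whole reads within 0.01, and every pair of replicates differed by more than counting noise (chi-square over its degrees of freedom, 17.3 to 95.8).

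The test was limma 3.58.1 (R 4.3.3), since FPKM values do not suit count models. Its input was log2(FPKM + 1) of the 11086 features averaging 1 FPKM or more, its only term was genotype, and variances were moderated along an intensity trend. The p-values are two-sided and Benjamini-Hochberg adjusted, with 0.05 as the threshold. Values in every library are given for each member past the threshold, the 5 most abundant in flox/flox and the most abundant of each role group, others by choice after their values were seen, and from other lists up to 4 members past the threshold. The members and the gene lists were chosen with earlier results of these data known. Of the list genes, 2 were not analysed here, and 1 tested carrier enters the counts but is not reported here. Alternatives covered the pseudocount (0.1), the filter (none, or 5 FPKM), scaling, the trend, voom (limma) on rebuilt reads with trimmed-mean factors, a replicate block, protein-coding features alone and leaving out each library. Strandedness and the handling of reads shared by near-identical copies are not stated in the labels. Python 3.11.15, numpy 2.4.6, pandas 2.3.3 and matplotlib 3.10.9 were used. The number of sample columns left unused was 0.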

Additional observations from a re-analysis of the deposited data

How the results depend on the processing

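Of the carriers, 7 were lower and 0 higher with the deposited values, where 6.86% and 5.95% of all features were. Shares of all features follow each count in brackets. Lower counts were 3 without the filter on low values (215 of 25877 features), 4 with median-of-ratios scaling (4.47%) and 2 with quantile normalization (3.48%). They were 4 with a common sum (1.99%), 3 with library totals (1.92%) and 0 to 6 when 1 library was left out (0.117% to 6.64%). Higher counts were 1 with quantile normalization (5.86%), 3 with a common sum (21.3%) and 2 with library totals (19.2%). They were 0 to 1 when 1 library was left out (17 to 718 of 11086 features). With the replicate number as a block, 1 carrier (Slc25a16) was lower and 0 higher (91 and 108 of 11086 features). Same-numbered libraries did not deviate together (correlations -0.00261, -0.0996 and -0.0673), so the numbers were not taken as pairs. Of the 30 carriers, 14 not called in the main comparison turned sign with a common sum and 14 with library totals, 4 with quantile normalization, 1 with median-of-ratios scaling, 2 with voom and 0 to 3 when 1 library was left out, and none of these was called there. Among the carriers followed through every setting, the log2 fold change turned sign for Slc25a23 (0.0035 with a common sum, 0.0061 with totals), Slc25a3 (0.15 with quantile normalization, 0.22 with a common sum, 0.22 with totals), Slc25a33 (0.11 with a common sum, 0.11 with totals, 0.48 without control replicate 1) and Slc25a45 (0.25 with a common sum, 0.25 with totals, 0.041 with voom, and -0.68 to 0.22 when 1 library was left out, positive without control replicate 2 at 0.19, control replicate 3 at 0.22 and HKO replicate 1 at 0.02). Over the other settings, enzymes using carried substrates gave 0 to 5 lower and 0 to 3 higher, other membrane transport 0 to 2 lower and 0 to 4 higher, and the import machinery 0 to 2 higher. Of all features, lower calls there ran from 91 of 11086 with the block to 705 of 5763 with the 5 FPKM filter. Higher calls ran from 108 of 11086 with the block to 2364 of 11086 with a common sum. The cause of these differences was not tested. Depth bounds the 3 carriers without reads at 0.153 FPKM or less.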
